A study of Mus musculus with 93 samples.

Results

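The canonical Wnt target and feedback genes described here are the 10 genes Axin2, Lef1, Tcf7, Nkd1, Notum, Sp5, Dkk1, Rnf43, Znrf3 and Lgr5. They were taken by name, by a rule that uses no measured value although earlier results of these data were known, and all 10 were found among the 24514 gene symbols of the count table. The study compared the progenitors of the first heart field, which forms much of the left ventricle, with those of the second heart field, which adds the right ventricle and outflow tract. RNA-seq was carried out on mouse cells sorted for GFP, driven by Hcn4, or for RFP, left by Tbx1-Cre recombination of the Ai9 reporter and therefore marking Tbx1 descendants whether or not they still express Tbx1. All 4 groups carry the same alleles (Hcn4-GFP, Tbx1-Cre, Ai9), the in vivo cells from embryos and the in vitro cells from spheroids of an embryonic stem cell line made from such mice. Each of the 93 libraries was made from 10 sorted cells, with 5 GFP+ and 4 RFP+ pools in vivo, and 38 GFP+ and 46 RFP+ pools taken on day 5.5 in vitro. The titles put the embryos at embryonic day 8.5, while the dissection protocol gives an earlier stage. The paper names that earlier day for the sequenced embryos as well. It is the end of what the paper calls the cardiac crescent stage, when both heart fields appear. The titles and the paper therefore conflict, and the stage of the in vivo cells is left unsettled here. The stem cells were kept in a medium that could hold Chir99021, a GSK3 inhibitor that activates Wnt signaling, and the protocol lists Wnt3A, Wnt5A, Wnt11, Bmp4 and Activin A as possible spheroid inducers. The labels do not say which of these the sequenced spheroids received, nor which wells came from separate embryos or differentiations, so the p-values below measure the spread between wells.

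In the canonical pathway a secreted Wnt ligand binds Frizzled and Lrp receptors, the complex that degrades β-catenin is held inactive, and β-catenin enters the nucleus to act with Tcf and Lef factors. Among the genes that are switched on are several that dampen the pathway again, so their transcripts are often read as a measure of its recent activity. In the early embryo canonical Wnt signaling is needed for mesoderm formation, later restrains cardiac differentiation and sustains proliferation of second heart field progenitors. By role, Lef1 and Tcf7 are the nuclear partners of β-catenin, Axin2 and Nkd1 act inside the cell as negative feedback, Dkk1 and Notum are secreted inhibitors, and Znrf3 and Rnf43 are membrane ubiquitin ligases that remove Frizzled receptors. Lgr5 is a receptor of the R-spondins, which counter those ligases, and Sp5 is a transcription factor that curbs other Wnt targets.

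The libraries held 712732 to 2525460 counts in vivo GFP+, 1246546 to 1479957 in vivo RFP+, 6288 to 4371849 in vitro GFP+ and 445071 to 5658882 in vitro RFP+. The lowest, well C9, was kept, and the next lowest in vitro GFP+ total was 828193. In vivo GFP+ libraries held fewer genes with a read, 6189 to 8302 against 10263 to 13052 in RFP+. In 7 plate rows the in vitro RFP+ wells of columns 3 and 4 gave close to the same counts (r 0.976 to 0.994 of log2 CPM, at most 0.971 in other pairs). They differed beyond sampling noise (chi-square per degree of freedom 1.37 to 2.39, against 2.68 to 14.2 in other pairs) and stayed separate. As reads carry no molecular identifiers, this cannot show that the paired wells are independent. With each pair summed, every member called in vitro kept its call and direction. Hcn4 was at 14.9 ± 16.7 CPM (TMM-scaled counts per 1000000, SD, n = 5) in GFP+ and 0.358 ± 0.716 (n = 4) in RFP+ cells in vivo, and at 7.36 ± 4.46 (n = 38) against 0.445 ± 0.666 (n = 46) in vitro. Tbx1 was at 0 against 3.94 ± 3.53 CPM in vivo and 0.0308 ± 0.134 against 2.51 ± 1.84 in vitro, so both genes followed the sorting labels. The 9 cardiomyocyte markers summed to 10846 to 30741 CPM in in vivo GFP+ libraries and 894 to 1802 in in vivo RFP+ libraries. In vitro they summed to only 0 to 1226 CPM (median 54.8) in GFP+ and 14.6 to 128 (median 39.3) in RFP+ wells. The 9 second heart field and pharyngeal markers summed to 68.4 to 290 CPM in GFP+ and 284 to 368 in RFP+ libraries in vivo. In vitro these sums were 0 to 278 CPM (median 145) in GFP+ and 157 to 345 (median 222) in RFP+ wells.

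The promoters of Sp5 and Dkk1 are shown because both genes were higher in RFP+ cells in vitro and because Tcf and Lef proteins are known to bind a short word that both contain. The search covered the word CTTTGAA as well as its relatives CTTTGAT in addition to CTTTGTA together with CTTTGTT, which share their first letters, on both strands of the 250 bases before each RefSeq transcript start (GRCm38.p6, the mm10 assembly). The word list was chosen after these windows had been seen. Windows were at hand for 7 members, 12 in all, and 3 held a match, against 14.8% of the 32851 windows of all genes. The Sp5 window, chr2:70474673-70474922 on the plus strand, lies just before the annotated start of Sp5 (chromosome 2, 70474923 to 70477729), overlaps no gene of GENCODE M21, and holds matches 222 to 216 and 104 to 98 bases before the start, in capitals:
Sp5: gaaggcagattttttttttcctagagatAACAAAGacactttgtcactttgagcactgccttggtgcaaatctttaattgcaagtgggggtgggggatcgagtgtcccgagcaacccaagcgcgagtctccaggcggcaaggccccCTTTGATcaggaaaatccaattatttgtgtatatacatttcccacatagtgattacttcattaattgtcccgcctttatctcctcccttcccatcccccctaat
The Dkk1 stretch, chr19:30549586-30549615 on the minus strand, holds matches 117 to 111 and 98 to 92 bases before the RefSeq start, and lies in the exon and UTR of a longer Dkk1 transcript in GENCODE M21:
Dkk1: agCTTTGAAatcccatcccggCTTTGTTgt
The third match, TACAAAG, lay 147 to 141 bases before a start inside Lef1, in an intron of the longer transcripts. The single Axin2 and Nkd1 windows and the Tcf7 and Rnf43 windows held none of the words. A match describes the letters only.

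Among the feedback genes inside the cell, Axin2 gave the clearest pattern. Axin2 (chromosome 11, 108920349 to 108950783, plus strand) encodes a scaffold of the β-catenin degradation complex and is a standard readout of the canonical pathway. In vivo it had no read in any of the 5 GFP+ libraries and was at 10.2, 9.14, 13.5 and 14.3 CPM in RFP+ libraries F12, G11, G12 and H11, from 13 to 20 counts each. The groups did not overlap. Axin2 passed the filter on low counts only through the RFP+ libraries, so the direction of its test was fixed beforehand. The call by edgeR's quasi-likelihood test (log2 fold change 7.03, SE 1.16, adjusted p = 0.00829) therefore adds no support beyond the counts themselves. That fitted value depends on how a count of 0 is handled, and against 3 counts per GFP+ library the RFP+ mean of Axin2 was higher by at least 4.59-fold, or at least 4.26-fold without H11. A two-sided exact permutation test gave p = 0.00794, the smallest that 5 against 4 libraries allow and unadjusted over the 60 such tests run on the members.

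Axin2 was the only member called in vivo, of 4 tested, where 6.21% of 8503 genes were called higher in RFP+. Every RFP+ library lay above every GFP+ library for 4 of the 10 members, Axin2, Tcf7, Nkd1 and Lgr5, and for 11.8% of the 15111 genes with a read in vivo. The in vivo RFP+ libraries also held reads of other cell types, with a summed 18.6 to 298 CPM of 5 endothelial markers (0 to 89.3 in GFP+), 10.03 to 59.1 CPM of 4 neural ectoderm markers (0 to 7.54 in GFP+) and up to 1153 CPM of 4 blood markers (median 0, up to 1.07 in GFP+), whose part in these results was not tested. Absence of reads was frequent in the in vivo GFP+ libraries. Of 1757 genes at 10 to 20 CPM in in vivo RFP+ cells, as Axin2 was, 247 (14.1%) had no read in any of the 5 GFP+ libraries, and of the 1950 genes at 0.5 to 2 CPM 68.4% had none. The part that the lower number of detected genes, or the cardiomyocyte content of the GFP+ libraries, had in these results was not tested, and in pools of 10 cells, fewer cells expressing a gene and less RNA per cell cannot be told apart.

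**Figure D1:**
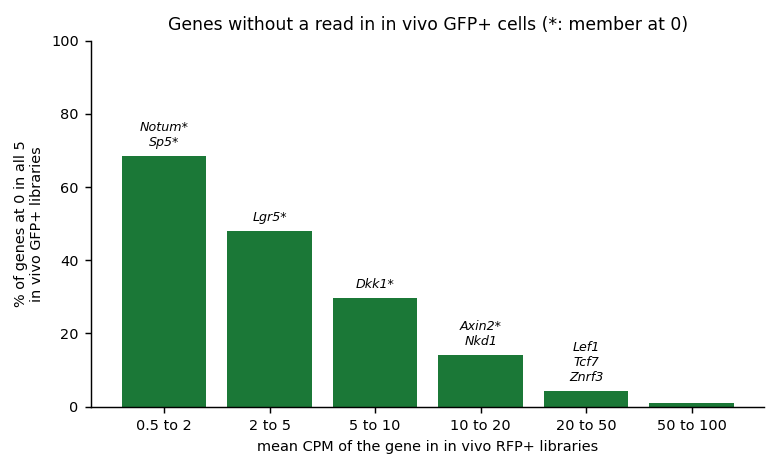
Bars give the share of genes (%, from 0 to 100) without a read in all 5 in vivo GFP+ libraries, by the gene's mean CPM in in vivo RFP+ libraries, with the members written over their class and an asterisk on those at 0. The share falls from 68.4% at 0.5 to 2 CPM to 0.885% at 50 to 100 CPM, and Axin2 stands in the class with 14.1%.

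In vitro, Axin2 was present in both populations and was higher in RFP+ cells. It ran from 0 to 34.3 CPM (median 11.05) in GFP+ wells, where C9 alone had no read, and from 6.77 to 43.2 CPM (median 20.1) in RFP+ wells. The means were 12.5 ± 7.001 (SD, n = 38) and 21.1 ± 8.28 CPM (SD, n = 46), and the ranges overlapped widely. By edgeR's quasi-likelihood test the change was 1.63-fold (log2 fold change 0.70, SE 0.14, adjusted p = 8.04e-06), and RFP+ wells were higher on average in 8 of 8 plate rows. Over the 4 groups the order was in vitro RFP+, in vitro GFP+, in vivo RFP+ and in vivo GFP+. The middle neighbours, at 12.5 and 11.8 ± 2.51 CPM (SD, n = 4), were not told apart (two-sided exact permutation p = 0.773). The in vitro populations differed by the test above although their wells overlapped, the in vivo populations did not overlap, and Axin2 was at least 4.85-fold higher in in vitro than in in vivo GFP+ cells. The difference between sources in the RFP+ over GFP+ change was called for Axin2 (6.33 on the log2 scale, SE 1.17, adjusted p = 0.0412 from the separate edgeR fits), for 1 of 4 members tested against 5.26% of 8182 genes. It was lost without in vivo RFP+ library G11 (adjusted p = 0.135). The value 6.33 contains the fitted in vivo change against a group at 0 and is no bound. The values that do not depend on that fit are the in vivo bound of at least 4.59-fold and the 1.63-fold change in vitro, and their difference was not tested.

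Nkd1 (chromosome 8, 88521354 to 88594884), which binds Dishevelled and lowers Wnt signaling, was likewise nearly without reads in in vivo GFP+ cells. In vivo GFP+ library D12 had 3 counts (1.40 CPM) and the other 4 had none, while RFP+ libraries F12, G11, G12 and H11 were at 4.37, 25.3, 5.07 and 7.88 CPM. The groups did not overlap, although G11 stood well above the other RFP+ libraries. Nkd1 fell under the filter on low counts in vivo. The ratio of RFP+ to GFP+ counts was 26.1 (95% exact counting interval 8.49 to 130), but 36 of the 59 RFP+ counts came from G11, and without it the ratio was 13.8 (4.17 to 71.9). All 3 GFP+ counts came from D12, and the two-sided exact permutation test gave p = 0.00794. In vitro it was at 8.60 ± 4.18 CPM (SD, n = 38; 0 to 17.4) in GFP+ and 13.1 ± 6.88 (SD, n = 46; 1.52 to 45.8) in RFP+ wells, 1.45-fold higher (log2 fold change 0.54, SE 0.16, edgeR adjusted p = 0.00145) and higher in 7 of 8 plate rows. In vivo RFP+ cells, at 10.7 ± 9.88 CPM (SD, n = 4), were not told apart from either in vitro population by the two-sided exact permutation test (p = 0.739 against GFP+ and 0.191 against RFP+).

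**Figure D2:**
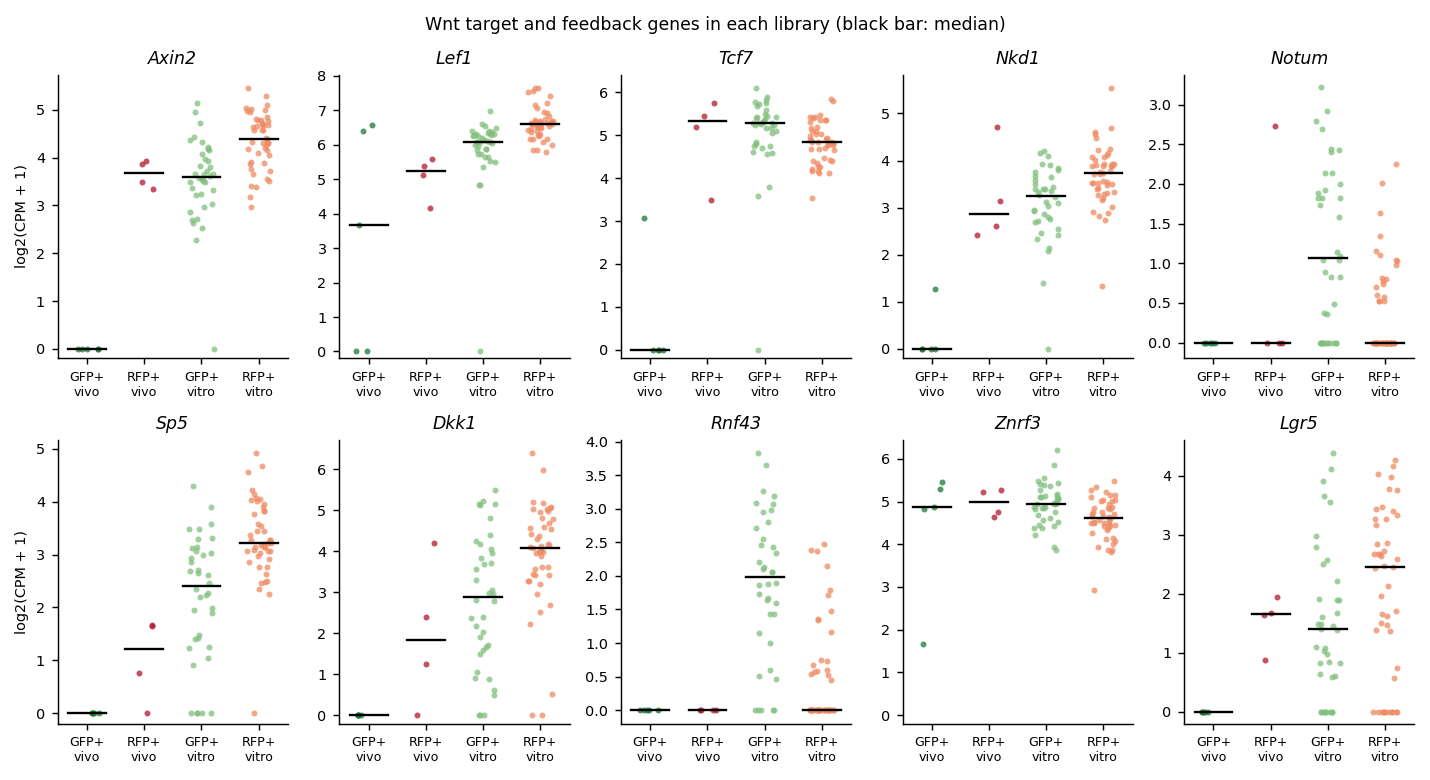
Each panel plots 1 gene as log2 of CPM plus 1, with a point per library and a black bar at the group median, for 5 in vivo GFP+, 4 in vivo RFP+, 38 in vitro GFP+ and 46 in vitro RFP+ libraries. Axin2 is at 0 in all in vivo GFP+ libraries and at 9.14 to 14.3 CPM in in vivo RFP+ libraries, while Znrf3 has reads in every library of all 4 groups.

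The nuclear factors Lef1 and Tcf7, close relatives that bind the same DNA word, took opposite directions in vitro. Lef1 (chromosome 3, 131110471 to 131224356) was at 27.4 to 125 CPM in GFP+ wells other than C9, which had no read, and at 53.6 to 200 CPM in RFP+ wells. Its means were 65.5 ± 21.9 (SD, n = 38) and 103 ± 36.1 CPM (SD, n = 46), so Lef1 was 1.48-fold higher in RFP+ cells (log2 fold change 0.56, SE 0.10, edgeR adjusted p = 1.80e-07) and higher in 8 of 8 plate rows. Tcf7 (chromosome 11, 52252371 to 52283014) was at 36.6 ± 13.5 CPM (SD, n = 38) in GFP+ and 29.0 ± 9.96 (SD, n = 46) in RFP+ wells, 1.33-fold lower in RFP+ (log2 fold change -0.41, SE 0.11, edgeR adjusted p = 0.000466). The edgeR change of Tcf7 was nearly the same without well C9 (log2 fold change -0.41, adjusted p = 0.000612), while the permutation test depended on that well. The permutation test over wells gave p = 0.169 with C9 and 0.002 without it. Without C9 Tcf7 was lower in RFP+ wells in 8 of 8 plate rows.

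In vivo neither of the pair was called. Lef1 was at 0, 83.1, 0, 11.7 and 94.1 CPM in GFP+ libraries A12, B12, C12, D12 and E12 and at 33.5, 47.1, 16.9 and 40.8 CPM in RFP+ libraries F12, G11, G12 and H11. The GFP+ libraries lay on both sides of the RFP+ range, and no difference was shown (log2 fold change -0.18, SE 1.58, edgeR adjusted p = 0.99). Tcf7 was at 7.35 CPM in GFP+ library B12 and at 0 in the other 4, and at 10.2, 42.9, 53.2 and 35.8 CPM in RFP+ libraries. The groups did not overlap, but edgeR's test did not call it (log2 fold change 4.39, SE 1.77, adjusted p = 0.207), unless B12 was left out (adjusted p = 0.0175). Tcf7 passed the filter in vivo only through the RFP+ libraries, and without B12 the GFP+ group was at 0. The call without B12 therefore adds no support beyond the counts. DESeq2 called Tcf7 (adjusted p = 0.0415) and Nkd1 (0.0245) besides Axin2, 3 members, in a fit that called 12.6% of its genes higher in RFP+. The exact two-sided permutation p was 0.0159 for Tcf7 and 0.357 for Lef1.

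Between sources, Lef1 was lower in vivo in RFP+ cells, at 34.6 ± 13.0 CPM (SD, n = 4) against 103 in vitro (log2 fold change -1.53, SE 0.27, edgeR adjusted p = 7.35e-06). In GFP+ cells the median gene was itself 0.67 lower on the log2 scale in vivo, and Lef1 (-0.95, SE 0.44, adjusted p = 0.0576) lay only 0.28 under it. That call was lost with median-of-ratios size factors (adjusted p = 0.311). Tcf7 was at 1.47 ± 3.29 CPM in in vivo GFP+ cells (SD, n = 5), with a log2 fold change of -4.35 (SE 0.55, edgeR adjusted p = 2.61e-09) against in vitro GFP+ cells. Tcf7 passed the filter in this comparison only through the in vitro wells. All in vivo GFP+ reads of Tcf7 came from B12, and without that library the group was at 0 and the fitted value became -9.10, which is no bound. In vivo RFP+ cells, at 35.5 ± 18.3 CPM (SD, n = 4), were not told apart from in vitro RFP+ cells (log2 fold change 0.31, SE 0.26, edgeR adjusted p = 0.383). Without F12 that value became 0.62 (adjusted p = 0.0735).

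**Figure D3:**
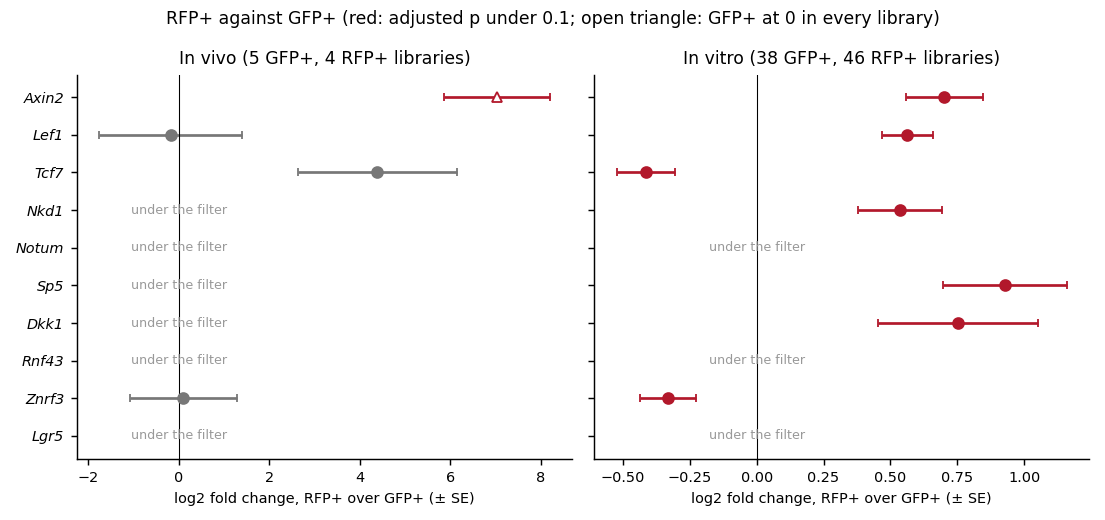
Points give the edgeR log2 fold change of RFP+ over GFP+ cells and bars its SE, in vivo at left and in vitro at right, with separate x scales. Red marks an adjusted p under 0.1 and the open triangle a gene without reads in any in vivo GFP+ library. Of 7 members tested in vitro Sp5 is farthest to the right at 0.93 and Tcf7 farthest to the left at -0.41.

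Sp5 and Dkk1, whose promoter words are printed above, had few reads in vivo and were higher in RFP+ cells in vitro. Sp5 was at 5.02 ± 4.21 CPM (SD, n = 38; 0 to 18.7) in in vitro GFP+ and 10.2 ± 5.68 CPM (SD, n = 46; 0 to 29.3) in in vitro RFP+ wells. The change was 1.90-fold (log2 fold change 0.93, SE 0.23, edgeR adjusted p = 0.000233), in the same direction in 8 of 8 plate rows. Dkk1 (chromosome 19, 30545863 to 30549665), which binds the Lrp co-receptors, was at 10.95 ± 12.1 CPM (SD, n = 38; 0 to 43.9) and 19.4 ± 15.3 CPM (SD, n = 46; 0 to 83.4), 1.68-fold higher (log2 fold change 0.75, SE 0.30, edgeR adjusted p = 0.019) and higher in 8 of 8 rows, with row F at only 0.02 on the log2 scale. In row F the RFP+ mean CPM of Dkk1 was the lower (10.9 against 18.01), and in GFP+ wells the SD of Dkk1 was larger than its mean.

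In vivo, neither gene had a read in any GFP+ library. Sp5 was at 2.19, 0.70, 0 and 2.15 CPM in RFP+ libraries F12, G11, G12 and H11, below what 3 counts per GFP+ library would give (2.57 CPM), so no fold is given. Dkk1 was at 17.5, 1.41, 0 and 4.30 CPM, and 24 of its 32 counts came from F12. Its mean was at least 2.25-fold over the GFP+ limit with F12 and under that limit without it. Two-sided exact permutation tests gave p = 0.0476 for each. With no filter on low counts edgeR called Dkk1 (adjusted p = 0.0725) besides Axin2, 2 members, where 10.8% of 15111 genes were called higher in RFP+. Both genes had a lower mean in vivo than in vitro in RFP+ cells, but passed the filter there only through the in vitro wells. Their calls therefore add no support beyond the counts. The in vivo RFP+ mean of Sp5 (1.26 CPM) lay under what 3 counts per RFP+ library would give (2.24 CPM), so its fitted value is no bound. For Sp5 the log2 fold change was -2.89 (SE 0.62, edgeR adjusted p = 0.000164), and for Dkk1 it was -1.70 (SE 0.70, adjusted p = 0.053), a call lost without G11, G12 or H11 (adjusted p = 0.173, 0.186 and 0.127). Without F12, which held most of its counts, the Dkk1 value became -3.23 (edgeR adjusted p = 0.00701). In GFP+ cells in vitro levels were at least 1.95-fold (Sp5) and 4.26-fold (Dkk1) above the limit of the in vivo libraries.

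The ligase pair Znrf3 and Rnf43 differed in where they were found. Znrf3 (chromosome 11, 5276324 to 5444847) had reads in all 93 libraries, at 27.8 ± 15.8 CPM in in vivo GFP+ (SD, n = 5), 31.1 ± 7.11 in in vivo RFP+ (SD, n = 4), 31.4 ± 11.5 in in vitro GFP+ (SD, n = 38) and 24.4 ± 7.81 in in vitro RFP+ cells (SD, n = 46). Well C9 had 1 count of Znrf3, which scaled to 73.3 CPM, the highest of its group. Without C9 Znrf3 was at 30.2 ± 9.22 CPM (SD, n = 37) in in vitro GFP+ wells. In vivo its GFP+ libraries A12 to E12 were at 2.15, 28.1, 38.4, 27.6 and 42.8 CPM and its RFP+ libraries at 37.9, 23.9, 26.2 and 36.5 CPM, which overlap (log2 fold change 0.10, SE 1.19, edgeR adjusted p = 0.993). This sign turned under median-of-ratios scaling (-0.05). In vitro it was 1.26-fold lower in RFP+ cells (log2 fold change -0.33, SE 0.10, edgeR adjusted p = 0.00328), and lower in 7 of 8 plate rows. Neither source comparison of Znrf3 was called (log2 fold change -0.28, SE 0.31 in GFP+ and 0.36, SE 0.24 in RFP+ cells, edgeR adjusted p = 0.455 and 0.255), and the GFP+ value turned to 0.22 under median-of-ratios scaling.

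Rnf43 (chromosome 11, 87662722 to 87735539), in contrast, had no read in any of the 9 in vivo libraries. In vitro it had reads in 33 of 38 GFP+ wells, at 3.67 ± 3.25 CPM (SD, n = 38; 0 to 13.3), and in 19 of 46 RFP+ wells, at 0.695 ± 1.24 CPM (SD, n = 46; 0 to 4.56). It fell under the filter on low counts in that comparison. The permutation test over wells gave p = 1e-05, the smallest that 100000 resamples can give, and Rnf43 was lower in RFP+ wells in 8 of 8 plate rows. Notum (chromosome 11, 120653788 to 120661175), an enzyme that removes the lipid from Wnt ligands, had the same direction. It had reads in 27 of 38 GFP+ wells, at 1.96 ± 2.16 CPM (SD, n = 38), and in 19 of 46 RFP+ wells, at 0.472 ± 0.811 CPM (SD, n = 46; permutation p = 2e-05), with RFP+ lower in 7 of 8 rows. In vivo only RFP+ library G11 had Notum reads, 8 counts or 5.62 CPM. With no filter edgeR called both lower in RFP+ cells in vitro (log2 fold change -2.30, SE 0.41 for Rnf43 and -1.90, SE 0.42 for Notum), so that 4 members with Tcf7 and Znrf3 stood against 35.3% of genes called in that direction.

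Lgr5 (chromosome 10, 115450311 to 115587780) was low in every group. It had no read in vivo in GFP+ cells and was at 2.19, 2.11, 0.844 and 2.87 CPM in RFP+ libraries F12, G11, G12 and H11, from 1 to 4 counts each. The groups did not overlap (two-sided exact permutation p = 0.00794), yet the RFP+ mean of 2.00 CPM lay under the limit that 3 counts per GFP+ library set. In vitro it was at 3.36 ± 4.85 (SD, n = 38) and 5.07 ± 5.06 CPM (SD, n = 46), with reads in 30 and 35 wells, and RFP+ wells were higher in 5 of 8 plate rows. That difference was not shown (permutation p = 0.0896).

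Of the 7 members tested in vitro, 5 were called higher in RFP+ cells (Sp5, Dkk1, Axin2, Lef1 and Nkd1) and 2 lower (Tcf7 and Znrf3). Rnf43, Notum and Lgr5 fell under the filter and are outside this count and the median below. With no filter Rnf43 and Notum were called lower in RFP+ cells (log2 fold change -2.30 and -1.90), and Lgr5 was not called. As 37.8% of the 9940 genes tested were called higher and 40.1% lower, a call in itself was common in vitro. The median log2 fold change was 0.56 over the 7 members and -0.02 over all genes. Cell type markers also differed between the populations in vitro. Summed CPM of the 9 paraxial and presomitic mesoderm markers, all with reads, were 108 to 224 in RFP+ and 0 to 74.6 in GFP+ wells, and of the 5 primitive streak markers, all with reads, 29.1 to 197 and 0 to 88.3. Of the 5 surface ectoderm markers they were 65.2 to 1099 in RFP+ and 1027 to 6654 in GFP+ wells, of the 6 pluripotency markers 4.22 to 557 and 35.8 to 1559, and of the 7 endoderm markers 22.001 to 796 and 0 to 365. The surface ectoderm list holds Krt8 and Krt18. These alone gave its 288 to 489 CPM in in vivo GFP+ libraries, where Tfap2a, Epcam and Cdh1 were at 0, so its sum need not mark ectoderm. The part of these cell types in the members' values was not tested. In vivo GFP+ libraries had no read of any of the 9 paraxial and presomitic markers, and in vivo RFP+ libraries had 46.4 to 91.2 CPM with Tbx6, Msgn1 and Ripply2 at 0. In vitro RFP+ wells filled other plate columns than GFP+ wells, so plate column and population cannot be told apart.

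**Figure D4:**
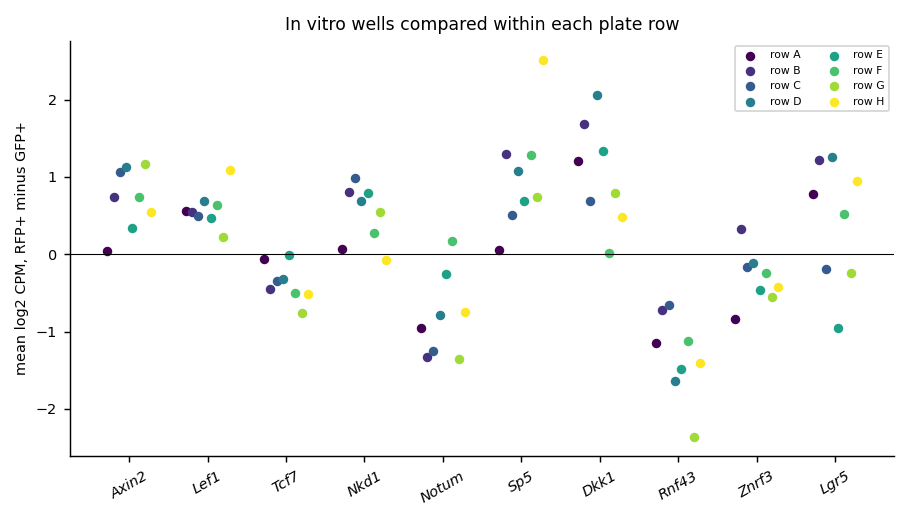
Each point is the mean log2 CPM of RFP+ wells minus that of GFP+ wells in 1 of the 8 plate rows of the in vitro cells, with well C9 left out. All 8 rows lie above 0 for Axin2, Lef1, Sp5 and Dkk1 and below 0 for Tcf7 and Rnf43, while Lgr5 has 5 above and 3 below.

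Between sources, members called were lower in vivo, and none was called higher. In GFP+ cells 8 of 9 tested members were called lower in vivo than in vitro, and 48.3% of 11822 genes were. Of these, Axin2, Sp5, Dkk1, Rnf43 and Lgr5 were at 0 in vivo. They passed the filter only through the in vitro wells, so that their calls were bound to follow. Tcf7 and Nkd1, with reads in 1 in vivo library each, also passed the filter only through those wells, which set their direction too. The lower bounds for Rnf43 and Lgr5 were 1.43-fold and 1.31-fold higher in vitro. These bounds do not allow for the median gene, itself 0.67 lower on the log2 scale in vivo. Nkd1 had 19.8 times the in vivo count rate in vitro (95% exact counting interval 6.74 to 96.2). In RFP+ cells 4 of 8 tested members were called lower in vivo (Sp5, Dkk1, Lef1 and Axin2), and 22.5% of 11147 genes were. Sp5, Dkk1, Nkd1 and Lgr5 passed the filter in this comparison only through the in vitro wells. The calls of Sp5 and Dkk1 therefore add no support beyond the counts. Axin2 had a log2 fold change of -0.83 (SE 0.33, edgeR adjusted p = 0.0412), lost without F12 (0.114) or G11 (0.132). Nkd1 and Lgr5 were not called (-0.26, SE 0.38 and -1.30, SE 0.97). Without G11, which held most of its counts, Nkd1 became -1.14 (edgeR adjusted p = 0.0524). Here the origin of the cells, their stage and their place on the plate cannot be told apart.

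On a scale per kilobase of exon (CPM divided by the union of annotated exons), Tcf7 and Lef1 led the members in vitro. In in vitro RFP+ cells Lef1 was at 11.7 ± 4.11 (SD, n = 46), Tcf7 at 11.04 ± 3.80 and Dkk1 at 8.00 ± 6.30 CPM per kb, and in in vitro GFP+ cells Tcf7 was at 13.9 ± 5.16 (SD, n = 38), Lef1 at 7.46 ± 2.49 and Dkk1 at 4.51 ± 5.00. In in vivo RFP+ cells Tcf7 was at 13.5 ± 6.98 (SD, n = 4), Znrf3 at 3.94 ± 0.901 and Lef1 at 3.93 ± 1.48. In in vivo GFP+ cells Lef1 at 4.30 ± 5.32 (SD, n = 5) and Znrf3 at 3.52 ± 2.00 were the only members over 1 CPM per kb. The lowest level per kb of a member with reads was that of Rnf43 in in vitro RFP+ cells, Lgr5 in in vitro GFP+ and in vivo RFP+ cells, and Nkd1 in in vivo GFP+ cells. Exons of Axin2, Lef1 and Notum overlap exons of antisense genes over 209, 1208 and 210 to 708 bases, and since the strand setting of the counting is not given in the sources used here, reads of the antisense RNAs cannot be told apart from theirs.

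Within each in vitro population the members were not strongly tied to each other. Over the 45 pairs of members, Spearman's rho of CPM had a median of 0.015 in 37 GFP+ wells (C9 left out), from -0.32 for Axin2 and Dkk1 to 0.387 for Axin2 and Znrf3. In 46 RFP+ wells the median was -0.012, from -0.229, again for Axin2 and Dkk1, to 0.462 for Dkk1 and Lgr5. Axin2 and Lef1 had a rho of 0.0415 and -0.134. These are descriptions over wells that share a plate and low counts. Over all 84 in vitro wells, the genes whose log2 CPM was most like that of Lef1 were Metap2 (rho 0.683), Aldh1a2 (0.67), Tcf4 (0.666), Gpc3 (0.664) and Cenpw (0.662), and within populations these had a rho of 0.267 to 0.531 in GFP+ and 0.333 to 0.54 in RFP+ wells. Those most like Axin2 were Mettl26 (0.645), Pcbp1 (0.621), Chd4 (0.599), Onecut2 (0.584) and Rack1 (0.579). Since the wells come from both populations, such a rho includes the difference between them.

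Of the 105 other genes listed for the pathway, 51 were tested in vivo, where none was called higher in RFP+ cells (6.21% of all genes tested) and 5 were called lower (3.88% of all). These were the ligand Wnt2, the secreted inhibitor Sfrp5, the tankyrase Tnks2, which marks Axin for degradation, and the target genes Id2 and Cd44. In vitro 58 were tested, with 28 called higher in RFP+ cells (37.8% of all genes) and 19 lower (40.1% of all), the shares against which the counts by role are to be read. Of the receptors there, 5 were called higher and 2 lower of 8 tested, of the secreted or surface inhibitors 3 and 1 of 4, of the nuclear factors 9 and 1 of 12, of the destruction complex and transducers 3 and 8 of 14, of other target genes 6 and 6 of 15, and of the ligands 1 and 1 of 3. The median log2 fold change was 0.65 for receptors, 0.92 for inhibitors, 0.35 for nuclear factors and -0.23 for the destruction complex, beside -0.02 for all genes.

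Only Id2, Tnks2 and Cd44 of this list were called in both sources, all lower in RFP+ cells. Id2 was at 1339 ± 202 (SD, n = 5) and 622 ± 131 CPM (SD, n = 4) in vivo (log2 fold change -1.16, SE 0.22, edgeR adjusted p = 0.00659) and at 397 ± 140 (SD, n = 38) and 243 ± 87.3 CPM (SD, n = 46) in vitro (-0.77, SE 0.11). Tnks2 had log2 fold changes of -0.98 (SE 0.31, edgeR adjusted p = 0.0763) in vivo and -0.56 (SE 0.05) in vitro. Cd44, a cell adhesion receptor, had -2.89 (SE 0.91, edgeR adjusted p = 0.08) and -0.42 (SE 0.14). Between sources the list gave 18 genes higher and 32 lower in vivo of 68 tested in GFP+ cells, where 19.7% of all genes were higher and 48.3% lower. In RFP+ cells it gave 15 higher and 20 lower of 72, where 20.1% of all were higher and 22.5% lower. The groups of the population and source comparisons share libraries.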

How the data were processed

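RNA of 10 sorted cells per well was sequenced in 93 libraries. The authors trimmed reads with Trimmomatic 0.36, mapped them to mm10 with HISAT2 2.0.4 and counted them with featureCounts 1.5.2, and they used DESeq2 for their tests. The deposited values are whole counts per gene symbol without normalization. Reads carry no molecular identifiers, so limits and intervals cover counting error only. Groups were taken from the labels. The members, gene lists and tests were chosen with earlier results of these data known.

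From these counts, edgeR 4.0.16 under R 4.3.3 gave the main tests (TMM, filterByExpr with a minimum count of 10, quasi-likelihood F-test, limma 3.58.1), with DESeq2 1.42.0 as an alternative. The GFP+ and RFP+ libraries were compared within each source and each population between sources, with Benjamini-Hochberg adjustment over all genes and calls at an adjusted p under 0.1, the threshold of the study. The difference between sources was the difference of the log2 fold changes over their standard errors, with 7 degrees of freedom. Standard errors came from the F statistics. CPM used TMM over all 93 libraries. Each member was also tested by a two-sided permutation test of mean log2 CPM (prior count 2), exact where a group had under 10 libraries and otherwise with 100000 resamples. The fits were tested on simulated counts. Named genes of the wider pathway were those called in both sources, besides 2 (Wnt2 and Sfrp5) named after their values were seen. Exons were taken from GENCODE M21 and promoter windows from RefSeq GRCm38.p6.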

Additional observations from a re-analysis of the deposited data

Results flagged for a closer look

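In vivo, 4 of 13 groups of member values had a library far from the rest by Dixon's criterion, which chance alone gives in about 1 of 20 groups of normally spread values. Where all other libraries are at 0, as for Tcf7, Nkd1 in GFP+ cells and Notum, any library with reads meets it, so that rate does not apply. In GFP+ cells these were Tcf7 in library B12 (7.35 CPM, the other 4 at 0) and Nkd1 in D12 (1.40 CPM, the other 4 at 0). In RFP+ cells they were Nkd1 in G11 (25.3 CPM, the others at 4.37 to 7.88) and Notum in G11 (5.62 CPM, the others at 0). Axin2 was called as different between sources in its RFP+ over GFP+ change, by a fitted 6.33 on the log2 scale with separate fits. That value rests on an in vivo group without reads and is no bound, and its call was lost without RFP+ library G11 (edgeR adjusted p = 0.135).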

How the results depend on the processing

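Of 399 alternative values of the members' log2 fold changes, 368 kept their direction and their side of the threshold, 15 were no longer called, 7 became called and 9 turned in sign, 4 of these in comparisons by scaling or tool and the others on leaving out a library. In vivo, the Znrf3 value turned to -0.048 with DESeq2 and -0.053 with median-of-ratios size factors, and ran from -0.20 to 0.31 on leaving out a library. Lef1 ran from -0.50 to 0.51. Between sources in GFP+ cells Znrf3 turned to 0.22 with DESeq2 and 0.22 with median-of-ratios size factors, and ran from -0.42 to 0.071. None of these was called.

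In vivo, 858 genes and 1 member were called, against 1945 and 3 with DESeq2, 2000 and 2 with no filter on low counts, 7115 and 6 in a fit over all 4 groups, and 613 to 1044 and 1 to 2 on leaving out a library. In vitro, 7747 genes were called, and 13109 with no filter. Between sources in RFP+ cells 4 members were called, and 2 in the fit over all 4 groups. For the difference between sources 430 genes and 1 member were called, against 247 genes at a threshold of 0.05, 6889 genes and 6 members with an interaction term over all 4 groups, and 72 to 556 genes and 0 to 2 members on leaving out a library. The lowest, 72 genes and no member, came without RFP+ library G11, and 2 members were called without GFP+ library B12. Of these 2, Tcf7 was at 0 in the in vivo GFP+ libraries that remained, so its call adds no support beyond the counts. The fits over all 4 groups share their estimate of spread with the 84 in vitro wells. Otherwise the causes were not tested.

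Lef1 between sources in GFP+ cells was not called with DESeq2 (adjusted p = 0.251) or without A12, C12 or D12 (0.181, 0.174 and 0.154). No paired analysis was possible because the groups compared share no well, which is the replicate name in the labels. The in vitro populations do share plate rows, and with plate row as a covariate 7754 genes and the same 7 members were called. The in vitro permutation tests and plate rows without well C9, and the Nkd1 ratio without G11, were chosen after seeing the data. In the in vivo GFP+ libraries 3 counts per library correspond to 2.57 CPM, which limits what a count of 0 can show there.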
